A study of Mus musculus with 12 samples.

Results

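Transcripts of glycolysis and of genes switched on by hypoxia-inducible factor (HIF) were followed in mouse T helper 1 (Th1) cells, with and without a targeted complex II gene. The set holds 35 genes, chosen by name from a fixed list of gene symbols and not by their values: 21 genes of glucose uptake, glycolysis and lactate export, Hif1a itself, and 13 genes known as HIF targets. All 35 were among the 18929 gene rows of the deposited table, and all 35 passed the filter on low values that left 12699 genes for testing. The control group was 3 libraries of WT genotype and the other group 3 libraries labelled Sdhc cKO, a conditional knockout of the gene for subunit C of succinate dehydrogenase (complex II). Cells of both groups were C57BL/6, were kept 5 days under Th1 conditions and were sorted before RNA extraction. The Cre that would drive the deletion, the animals' age and the sorting gate are not given in the labels, nor is it said whether the 3 libraries of a group were separate animals or cultures. The p-values here therefore measure only the spread between libraries, which may be technical in part. Sex-linked transcripts, given further on, differed within each group, so its libraries were not all drawn from the same cells. The series has 12 samples in 5 groups, and its 6 samples of Slc25a1 KO, Slc25a11 KO and EV transduced cells were not analysed here.

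Glycolysis splits glucose into pyruvate in the cytosol, and lactate dehydrogenase turns pyruvate into lactate, which monocarboxylate transporters carry out of the cell. Activated T cells take up more glucose and make more lactate than resting ones, and the genes for these steps are switched on by growth signals and by HIF-1, a factor made of HIF-1alpha and ARNT. Prolyl hydroxylases that use oxygen and 2-oxoglutarate mark HIF-1alpha for breakdown through VHL. Succinate, the substrate of complex II, is a product and inhibitor of these hydroxylases, so the transcripts of HIF targets are a usual readout when complex II is lost. HIF-1 binds the core words ACGTG and GCGTG near many of these genes.

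Promoters of 4 members are shown as examples that differ in the number of these words. Each sequence is the 250 bases before the RefSeq start on GRCm38.p6, read 5′ to 3′ on the gene's strand. Capitals mark every ACGTG or GCGTG on either strand (CACGT and CACGC are these words on the other strand). A CACGTG reads as ACGTG on both strands and counts as 2 matches. Ldha makes lactate from pyruvate (chr7:46845554-46845803, plus strand), Bnip3 encodes a mitophagy receptor of the outer mitochondrial membrane (chr7:138909507-138909756, minus strand), Ak4 encodes a mitochondrial adenylate kinase (chr4:101419039-101419288, plus strand) and Tpi1 interconverts the triose phosphates (chr6:124814159-124814408, minus strand).
Ldha: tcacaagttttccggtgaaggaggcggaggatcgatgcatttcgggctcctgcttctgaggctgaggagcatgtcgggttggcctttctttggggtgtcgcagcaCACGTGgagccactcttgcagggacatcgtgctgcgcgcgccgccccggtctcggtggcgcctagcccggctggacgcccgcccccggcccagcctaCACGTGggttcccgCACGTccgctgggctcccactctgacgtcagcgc
Bnip3: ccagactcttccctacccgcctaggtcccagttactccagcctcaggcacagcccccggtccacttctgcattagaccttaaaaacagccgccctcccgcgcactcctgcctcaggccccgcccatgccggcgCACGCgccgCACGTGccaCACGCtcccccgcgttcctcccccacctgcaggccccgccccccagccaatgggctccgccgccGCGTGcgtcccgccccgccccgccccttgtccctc
Ak4: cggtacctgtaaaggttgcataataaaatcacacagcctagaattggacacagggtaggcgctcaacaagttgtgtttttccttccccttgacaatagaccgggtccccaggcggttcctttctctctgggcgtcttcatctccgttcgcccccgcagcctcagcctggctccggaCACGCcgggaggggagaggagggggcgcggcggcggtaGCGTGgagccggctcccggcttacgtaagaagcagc
Tpi1: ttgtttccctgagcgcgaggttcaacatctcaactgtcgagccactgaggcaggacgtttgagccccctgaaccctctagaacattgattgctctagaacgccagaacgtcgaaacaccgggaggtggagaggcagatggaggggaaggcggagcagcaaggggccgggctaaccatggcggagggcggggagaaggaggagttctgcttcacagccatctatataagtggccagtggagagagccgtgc
The Ldha window held 5 matches to ACGTG, with 2 CACGTG among them, and 0 to GCGTG. The Bnip3 window held 2 and 3, the Ak4 window 0 and 2, and the Tpi1 window 0 of either. RefSeq promoters were found for 32 of the 35 members, in 50 windows, since some genes have several starts. At least 1 of the words stood in 80.0% of the member windows, against 38.6% of 32851 windows over the genome, called all windows here. These left out 1 chromosome, included genes not expressed in these cells and were not matched for base content. ACGTG was in 46.0% of member windows and 16.6% of all windows, GCGTG in 54.0% and 28.2%, and CACGTG in 14.0% and 6.02%. The windows of Aldoa, Gpi1, Gys1, Hk1, Mif, Mxi1, Pkm, Tpi1 and Vegfa that lay farthest upstream held no match, and 5 of these 9 genes had a match in the window of another start. Over all of its windows, 28 of the 32 member genes had at least 1 match, against 11226 of 27025 genes over the genome. Gpi1, Gys1, Mif and Tpi1, each with 1 window, had none. With 50 windows for 32 genes, against 32851 for 27025, a member had more chances of a match. Part of the members were listed as known HIF targets, so a raised share may follow from that choice. A match is a description of the letters and says nothing of binding in these cells. RefSeq starts can differ from the gene spans of GENCODE M21. There Ldha spans chr7:46841475-46855627 and Tpi1 chr6:124810586-124814296, so the Ldha window lies inside its gene and the Tpi1 window partly so. The absence of a word from the Tpi1 window therefore does not cover all sequence before its GENCODE start.

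Depth was similar in the 6 libraries, at 18144933 to 21983821 counted reads. Defining T cell genes were high in all of them: Cd3e had 8618 to 10046 normalised counts (reads divided by 1 size factor per library) and Cd4 10113 to 11045. Of B cell genes, Ms4a1 had at most 3.92 and Ighm 1577 to 2025, and the summed myeloid list reached 186. The targeted gene Sdhc differed little, with a log2 ratio of -0.15 with an SE of 0.09 (limma adjusted p = 0.978), and counts over a whole gene do not check for a deleted exon. The libraries differed in sex-linked transcripts within each group. Ddx3y, Kdm5d, Uty and Eif2s3y, all Y-linked, summed to 0.0480, 131 and 55.1 RPM (scaled to all counted reads) in controls 1, 2 and 3 and 0.207, 193 and 189 in cKO 1, 2 and 3. Xist, the X-inactivation transcript, had normalised counts of 9780, 2490 and 6406 across the controls and of 7565, 0 and 2.15 across the cKO libraries. The first principal component of all tested genes held 49.1% of the variance and set control 1 and cKO 1, at -22.5 and -39.9, apart from the other 4 libraries, at 8.75 to 24.2.

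No glycolysis or HIF gene passed the test between the genotypes, and nearly all of them varied more between libraries of 1 genotype than between the genotype means. Hif1a, 1 of 35 members, was lower in each cKO library than in any control, by a small amount. The same separation held for 5.64% of all tested genes. In limma on log2(normalised count + 1), with Benjamini-Hochberg adjustment over all 12699 genes and a threshold of 0.05, 0 of 35 members passed. The background was 0 of 12699 genes, or 0%, with 445 genes (3.5%) and 1 member, Hif1a, at an unadjusted p under 0.05. DESeq2 on the recovered reads called 2 genes, 1 of them lower (0.00787%), and edgeR called 0, and neither called a member. Of the members, 26 had negative and 9 positive log2 fold changes (cKO over control, called log2 ratios here), and the median was -0.14, against -0.01 over all tested genes. The median was -0.13 for the 21 glycolysis genes and -0.14 for the 13 HIF targets. In bulk RNA, fewer cells of a type and less RNA per cell cannot be told apart. In this fit on genotype alone, the sign of both medians changed when cKO 1 alone was left out. They were then 0.14 and 0.18, and 31 of the 35 members had positive log2 ratios. That fit kept control 1, which was also low in most members. Without both libraries numbered 1 the medians were -0.05 and -0.01, and 24 of the 35 members had negative log2 ratios. Without control 2 alone the medians were 0.04 and -0.00. With a covariate for sex-linked transcripts, given further on, the median over all members was negative in each form tried, -0.23 to -0.75. These covariates were partly bound up with genotype, and most members were low in the libraries with almost no Y-linked reads. The medians with a covariate therefore do not settle the sign.

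**Figure D1:**
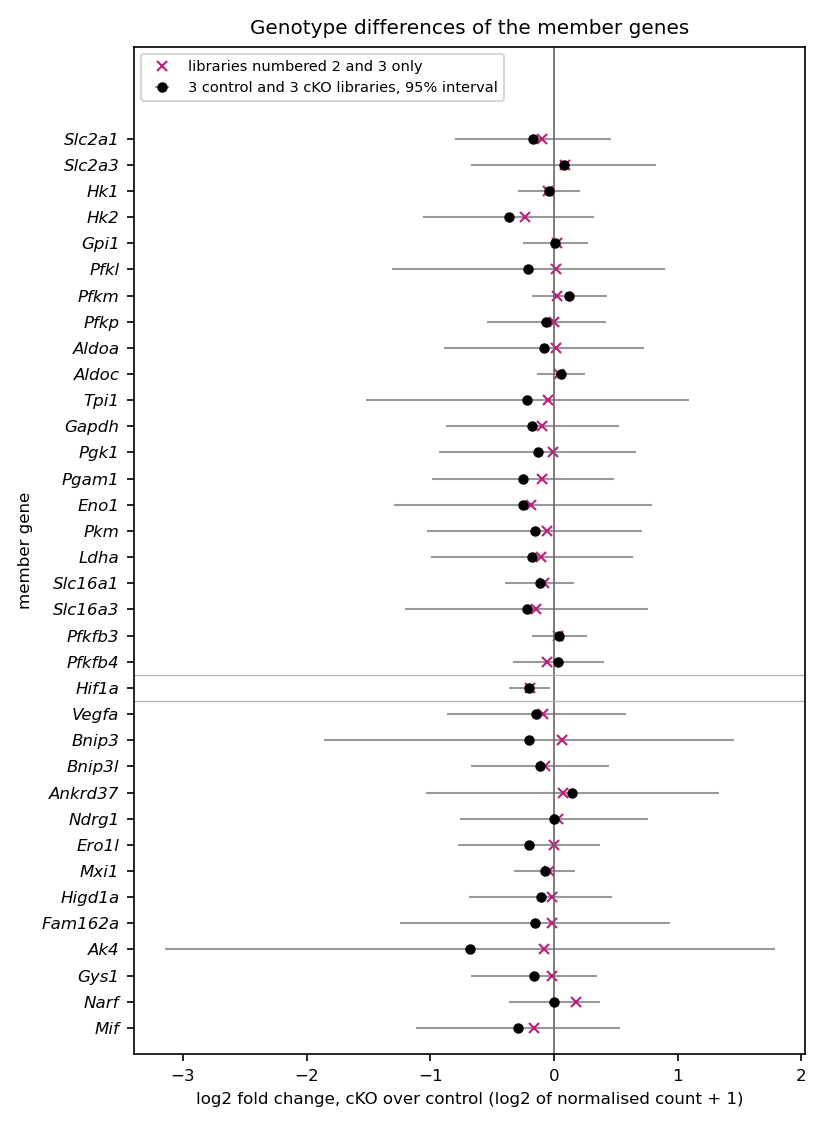
Log2 ratios, cKO over control, of the 35 members (vertical axis, glycolysis genes above, Hif1a between the lines, HIF targets below). Black points are the estimates from 3 control and 3 cKO libraries with 95% intervals from limma, and crosses are the estimates from libraries numbered 2 and 3 only. The interval of Hif1a, -0.37 to -0.04, is the only one of the 35 that leaves out 0, and that of Ak4, -3.15 to 1.78, is the widest.

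Glucose enters T cells mainly through GLUT1 and GLUT3, encoded by Slc2a1 and Slc2a3. Slc2a1 had normalised counts of 1825, 2934 and 2718 across the controls and of 1475, 3032 and 2291 across the cKO libraries. Number 1 was the lowest library of both groups, which overlapped. The log2 ratio was -0.17 (SE 0.27, limma adjusted p = 0.984). Slc2a3 had 1191, 2379 and 2110 across the controls against 1236, 2425 and 2336 across the cKO libraries. Here too number 1 was lowest in each group, the groups overlapped, and the log2 ratio was 0.08 (SE 0.32). Per kilobase of exon, Slc2a1 made up 62.0% ± 2.68 of the pair in the controls and 57.9% ± 3.15 in the cKO libraries (SD, n = 3 each). This share did not differ beyond the spread (2-sided exact permutation p = 0.2, and 1.0 after adjustment over the 10 shares compared, where 0.1 is the smallest p that 3 against 3 allows).

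Hexokinases trap glucose as glucose 6-phosphate. Hk1, the broadly expressed form, had normalised counts of 4661, 5801 and 5155 across the controls and of 4557, 5560 and 5045 across the cKO libraries, a narrow range with overlapping groups and a log2 ratio of -0.04 (SE 0.11). Hk2, the inducible form, had 1381, 2337 and 1829 across the controls against 894, 1988 and 1545 across the cKO libraries. Each cKO library was below the control of its number, with differences of -0.63, -0.23 and -0.24 on the log2 scale, yet the groups overlapped. The log2 ratio of -0.37 was the largest in size among the glycolysis genes (SE 0.30, limma adjusted p = 0.978). It was -0.24 without both libraries numbered 1. Hk2 made up 23.2% ± 2.73 of the 2 hexokinases per kilobase in the controls and 19.7% ± 4.68 in the cKO libraries, with an exact permutation p of 0.5.

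Of the upper steps, glucose phosphate isomerase (Gpi1) ranged over 12293 to 15518 normalised counts in the 6 libraries, with a log2 ratio of 0.01 (SE 0.11). Phosphofructokinase, the committed step, has 3 subunit genes. Pfkp ranged over 7080 to 11996 normalised counts and Pfkl over 984 to 3529, both lowest in cKO 1. Pfkm ran the other way, with 827, 723 and 801 across the controls against 1028, 735 and 819 across the cKO libraries, highest in the libraries numbered 1. Per kilobase, Pfkp held 71.3% ± 1.61 of the 3 in the controls and 71.1% ± 1.70 in the cKO libraries. The share of Pfkl was 16.2%, 23.9% and 21.2% across the controls against 11.7%, 23.8% and 21.7% across the cKO libraries, lower in both number 1 libraries than in the other 4. The 3 phosphofructokinase shares gave exact permutation p of 0.7 to 1.0 between the genotypes.

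Aldolase A (Aldoa), which splits fructose 1,6-bisphosphate, had normalised counts of 20801, 39312 and 34913 across the controls and of 17279, 41458 and 33808 across the cKO libraries. Number 1 was the lowest of each group, and the log2 ratio was -0.08 (SE 0.35). Aldoc, the minor aldolase here, stayed between 1297 and 1521 in all 6 libraries. Aldoa made up 97.2% ± 0.977 of the pair per kilobase in the controls and 96.8% ± 1.57 in the cKO libraries. Tpi1 ranged over 4268 to 18249 normalised counts, 4.28-fold from lowest to highest, with a log2 ratio of -0.22 (SE 0.56). Its spread across libraries exceeded that of Aldoa, which was 2.40-fold.

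The lower, energy-yielding steps held several of the most abundant members. Gapdh, glyceraldehyde 3-phosphate dehydrogenase, had normalised counts of 22417, 39836 and 33584 across the controls and of 17786, 37786 and 30921 across the cKO libraries. The control mean was 31946 ± 8824 and the cKO mean 28831 ± 10163 (SD, n = 3 each), for a log2 ratio of -0.18 (SE 0.30, limma adjusted p = 0.984). Each cKO library was below the control of its number, and the groups overlapped, with numbers 2 and 3 of both groups above both libraries numbered 1. Eno1 (enolase 1) had 9253, 24077 and 18291 across the controls against 7131, 20252 and 16771 across the cKO libraries, with a log2 ratio of -0.25 (SE 0.45). Pkm, pyruvate kinase, had 23373, 47373 and 39473 across the controls against 18219, 46985 and 36925 across the cKO libraries, with a log2 ratio of -0.16 (SE 0.38). Both had overlapping groups and their lowest values in cKO 1 and control 1. Pgk1 and Pgam1, the phosphoglycerate kinase and mutase, had log2 ratios of -0.13 (SE 0.34) and -0.25 (SE 0.32). Pgk1 lies on the X chromosome. Gapdh, Eno1 and several other glycolysis genes have many near-identical processed copies in the genome, so their counts are uncertain to the extent that reads were shared or dropped.

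Lactate dehydrogenase A (Ldha), whose promoter is printed above, had normalised counts of 16960, 33587 and 28445 across the controls and of 13449, 32201 and 25690 across the cKO libraries. Number 1 was lowest in each group, each cKO library was below its same-numbered control, and the groups overlapped. The log2 ratio was -0.18 (SE 0.35, limma adjusted p = 0.984). Per kilobase Ldha was 95.7% ± 1.11 of Ldha and Ldhb together in the controls and 95.3% ± 1.17 in the cKO libraries. Slc16a3, the lactate exporter MCT4, had 1278, 2953 and 2534 across the controls against 992, 2795 and 2181 across the cKO libraries, with a log2 ratio of -0.22 (SE 0.42). Slc16a1, the related carrier MCT1, varied less, from 2086 to 2850, with a log2 ratio of -0.12 (SE 0.12). The share of Slc16a3 in this pair per kilobase was 34.8% and 32.1% in control 1 and cKO 1 and 45.1% to 50.8% in the other 4 libraries. The genotype means of that share, 44.4% ± 8.43 and 42.7% ± 9.58, differed by less than the spread (exact permutation p = 0.8).

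The enzymes that set fructose 2,6-bisphosphate, the activator of phosphofructokinase, did not share the low values in the libraries numbered 1. Pfkfb3 had normalised counts of 1156, 1370 and 1148 across the controls and of 1215, 1354 and 1210 across the cKO libraries, with overlapping groups and a log2 ratio of 0.04 (SE 0.10). Pfkfb4 had 254, 213 and 244 across the controls against 296, 205 and 232 across the cKO libraries, highest in both libraries numbered 1. Pfkfb3 held 76.4% ± 3.34 of the pair per kilobase in the controls and 76.5% ± 4.25 in the cKO libraries.

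Hif1a, the gene of the regulated HIF subunit, was the 1 member whose groups did not overlap. It had normalised counts of 14091, 13422 and 13968 across the controls and of 12162, 11572 and 12346 across the cKO libraries. All 3 cKO libraries were below all 3 controls, and the spread within a group was small, with means of 13827 ± 356 and 12027 ± 405 (SD, n = 3 each). The cKO level was 87.0% of control, and the log2 ratio was -0.20 (SE 0.07, 95% interval -0.37 to -0.04). It differed by -0.21, -0.21 and -0.18 in the pairs numbered 1, 2 and 3 and stayed between -0.22 and -0.17 with any 1 library left out. It did not pass over all genes (limma adjusted p = 0.978) and its exact permutation p was 0.1, the smallest that this design allows. Groups failed to overlap with cKO lower in 716 of 12699 genes, or 5.64%, and in 1 of 35 members. With cKO higher these were 573 genes, or 4.51%, and 0 members. Some, not all, of the sums over fixed marker lists separated by genotype. The 5 genes of the natural killer list, 3 of which passed the filter, summed to 465 to 516 in the controls and 334 to 407 in the cKO libraries. Eomes and Klrk1 were the largest parts of this sum. The 5 genes present of the gamma delta T cell list, 4 of which passed the filter, summed to 274 to 334 and 175 to 246. CD8 T cell sums overlapped (278 to 368 and 235 to 547), as did B cell sums (1624 to 1978 and 1864 to 2070). Each natural killer gene taken alone overlapped between the groups, and Ncr1 stayed at 22.0 normalised counts or less. These sums do not show that such cells were present, and a part of such cells in the Hif1a difference was not tested.

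**Figure D2:**
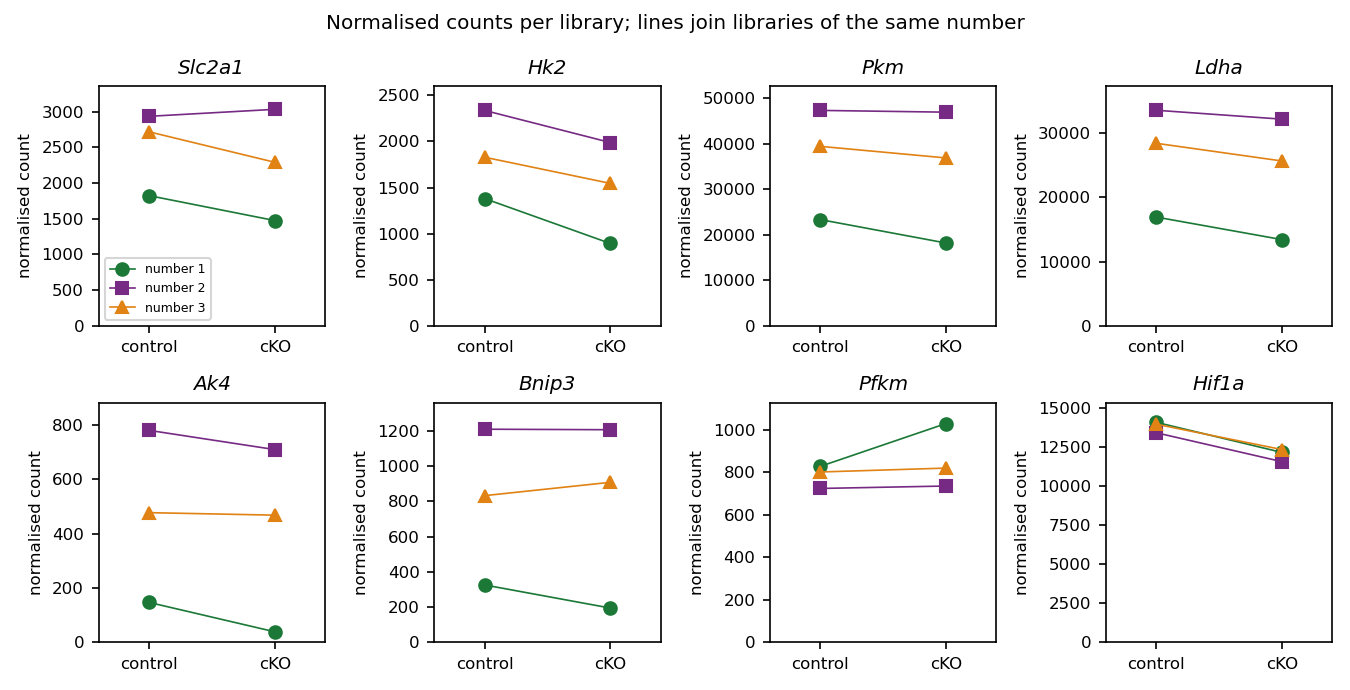
Normalised counts (vertical axes, from 0) of 8 members in the control and cKO libraries, with lines joining libraries of the same number. In Slc2a1, Hk2, Pkm, Ldha, Ak4 and Bnip3 the number 1 libraries lie lowest and number 2 highest in both genotypes, in Pfkm number 1 lies highest, and in Hif1a all 3 lines run from 13422 to 14091 in the controls down to 11572 to 12346 in the cKO libraries.

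The secreted and other non-mitochondrial HIF targets did not separate by genotype. Vegfa, the angiogenic growth factor, had normalised counts of 356, 624 and 613 across the controls and of 299, 638 and 529 across the cKO libraries. The groups overlapped, number 1 was lowest in each, and the log2 ratio was -0.14 (SE 0.31, 95% interval -0.87 to 0.58). Ankrd37, an ankyrin-repeat protein whose gene responds to HIF-1, had the fewest reads of the members, with normalised counts of 18.5, 51.9 and 49.5 across the controls against 23.1, 73.2 and 38.7 across the cKO libraries. Its log2 ratio of 0.15 (SE 0.51, 95% interval -1.04 to 1.33) was the highest of the set, and the interval spans more than a doubling in either direction. Mif, a cytokine-like tautomerase, and Ero1l, an oxidase of the endoplasmic reticulum, had log2 ratios of -0.29 (SE 0.36) and -0.20 (SE 0.25).

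Bnip3 and Ak4, which act at mitochondria, had the widest ranges across libraries of the 35 members. Bnip3 had normalised counts of 326, 1209 and 833 across the controls and of 195, 1207 and 908 across the cKO libraries. It was 6.21-fold higher in the highest library than in the lowest, and the log2 ratio was -0.21 (SE 0.71). The share of Bnip3 in Bnip3 and Bnip3l together, per kilobase, was 35.7% and 27.5% in control 1 and cKO 1 and 51.6% to 56.7% in the other 4 libraries. Ak4 had 147, 780 and 477 across the controls against 39.2, 710 and 468 across the cKO libraries, a 19.9-fold range. Its log2 ratio of -0.68 (SE 1.06, limma adjusted p = 0.982) was the largest in size of the 35. Pair number 1 differed by -1.88 and the other pairs by -0.14 and -0.03, and without both libraries numbered 1 the log2 ratio was -0.08. The Ak4 and Bnip3 windows printed above hold core words and the Tpi1 window, which lies partly inside its gene, holds none. Whether these words have a part in the spread between libraries was not tested. Higd1a and Fam162a, which encode small mitochondrial proteins, had log2 ratios of -0.11 (SE 0.25) and -0.16 (SE 0.47).

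The other HIF targets had log2 ratios from -0.16 to 0.00. Ndrg1, a stress-responsive gene, had a log2 ratio of 0.00 (SE 0.33), Narf 0.00 (SE 0.16), Mxi1, an antagonist of Myc, -0.08 (SE 0.11), Gys1, glycogen synthase, -0.16 (SE 0.22) and Bnip3l, the paralog of Bnip3, -0.12 (SE 0.24). Mxi1 ranged over 455 to 570 normalised counts and Narf over 490 to 771 in the 6 libraries. In each of these 5 genes the groups overlapped and cKO 1 was the lowest library.

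Across libraries the members moved together by replicate number rather than by genotype. Both libraries numbered 1 lay below the other 4 in 30 of 35 members, or 85.7%, against 20.3% of all tested genes. The exceptions were Hif1a, Pfkm, Aldoc, Pfkfb3 and Pfkfb4. Of these, 2, Pfkm and Pfkfb4, had both number 1 libraries above the other 4, which held for 19.7% of all genes. In 27 of 35 members the numbers stood in the order 1, 3, 2 from low to high without overlap, against 6.68% of genes, and cKO 1 was the lowest library in 28 members, against 32% of genes. All 13 HIF targets and 17 of the 21 glycolysis genes had both number 1 libraries lowest. The median member deviated from its mean over the 6 libraries by -0.34, 0.39 and 0.20 (log2) in controls 1, 2 and 3 and by -0.68, 0.38 and 0.11 in cKO 1, 2 and 3. The 2 libraries that stood low are the ones with almost no Y-linked reads. In cKO 1 the sum of proliferation markers was also the lowest (50354, against 58019 to 66044 in the other 5). Top2a, Ccnb1 and Cdk1 were each lowest in cKO 1. Mki67 was not: it was 15050 in cKO 1, 14845 in control 2 and 14906 in cKO 3, and highest in control 1 (17698). Whether these features have a part in the pattern was not tested. The labels do not say what a replicate number stands for.

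**Figure D3:**
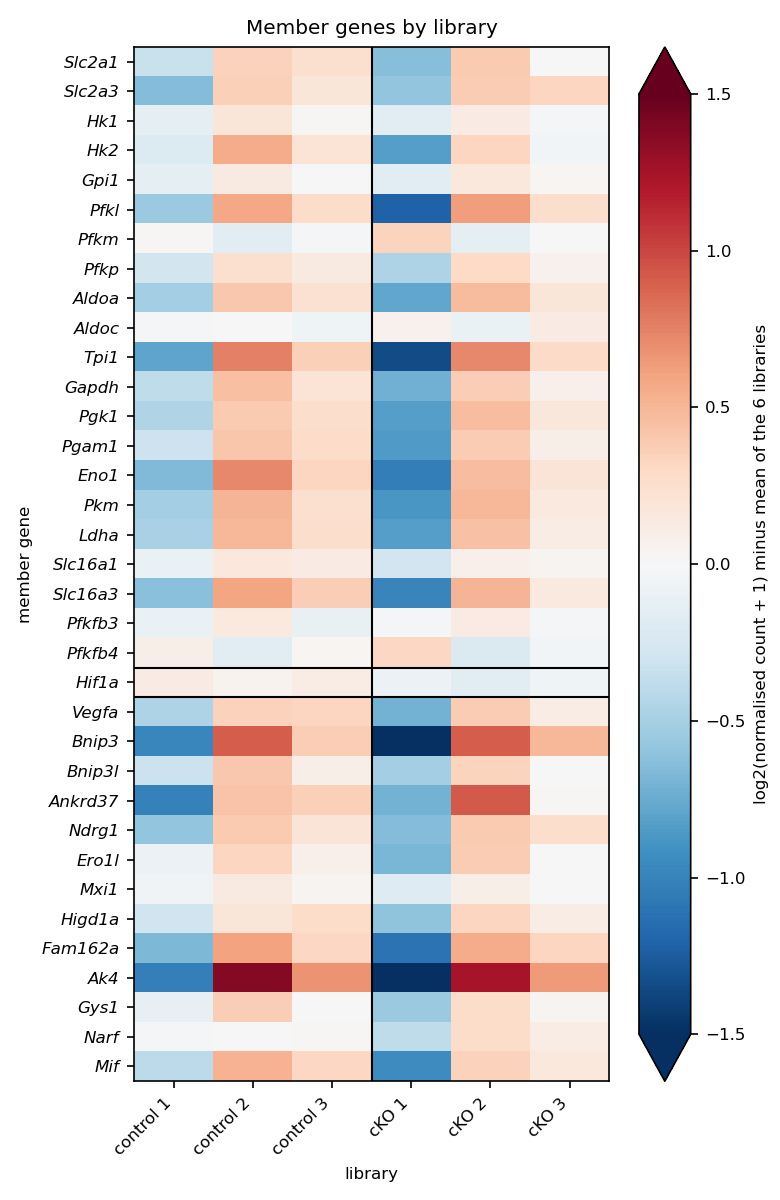
Deviation of log2(normalised count + 1) from the gene's mean over the 6 libraries (colour, red higher and blue lower, with values beyond 1.5 shown at the end colours) for the 35 members in rows and the 6 libraries in columns. The columns control 1 and cKO 1 hold the lowest values for 30 members, and the Hif1a row, between the horizontal lines, changes colour at the vertical line between the genotypes.

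Summed levels showed the same. The 21 glycolysis genes summed to 145734, 270125 and 229773 normalised counts in controls 1, 2 and 3 and to 119969, 264802 and 216551 in cKO 1, 2 and 3. The highest library was 2.25-fold above the lowest, while the cKO sum was 82.3%, 98.0% and 94.2% of the control of the same number. The 13 HIF targets summed to 10272, 18036 and 15298 across the controls against 7617, 17456 and 14555 across the cKO libraries, a 2.37-fold range, with cKO at 74.1%, 96.8% and 95.1% of the same-numbered control. Each cKO sum was below its same-numbered control, and the groups overlapped.

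Set against the control of the same number, the members had a median difference of -0.31 (log2) in pair 1, -0.02 in pair 2 and -0.07 in pair 3. Pairs 2 and 3 were not matched in sex-linked transcripts. Controls 2 and 3 held both Y-linked reads and Xist (2490 and 6406), while cKO 2 and 3 held Y-linked reads and almost no Xist (0 and 2.15). In pair 1 Xist was 9780 and 7565. Pairs 2 and 3, and the block built on the numbers, therefore differed in more than genotype. A member was lower in all 3 pairs in 15 of 35 cases, against 21.8% of all genes, and higher in all 3 in 2, against 14.6%. With the replicate number as a block in limma, 0 members and 1 gene of all, a lower one (0.00787%), passed. With the block, edgeR called 1 gene (0.00787%, lower) and DESeq2 13 (0.102%), and 0 were members. The lowest adjusted p of a member in limma with the block was 0.256, for Hk2 (log2 ratio -0.37, SE 0.08), and that of Hif1a was 0.312. The block left 7 of 35 members at an unadjusted p under 0.05, against 12.6% of genes. Without both libraries numbered 1, the median over the members was -0.04 and 0 members passed.

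**Figure D4:**
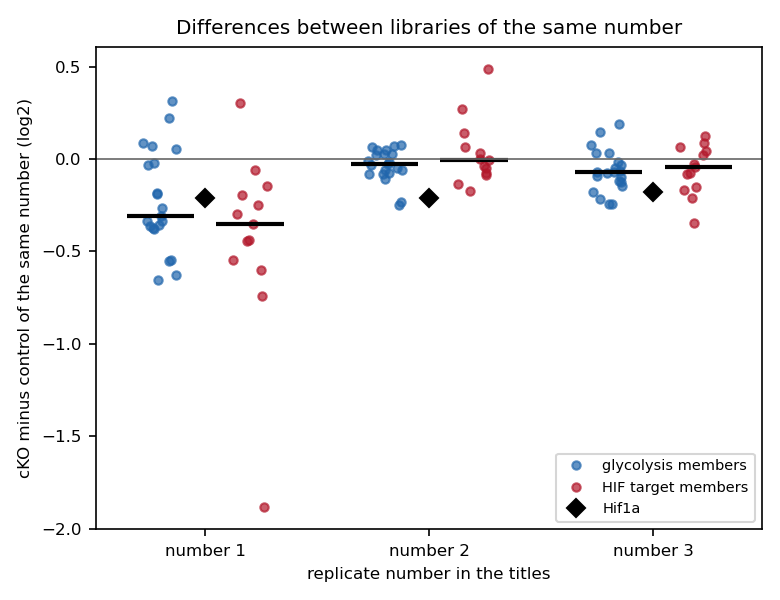
Difference between the cKO and the control library of the same replicate number on the log2 scale (vertical axis) for pairs 1, 2 and 3, with a point per glycolysis gene (blue) and HIF target (red), black bars at the medians and diamonds for Hif1a. The bars lie at -0.31 and -0.35 in pair 1 and between -0.07 and 0.00 in the other pairs, while Hif1a lies at -0.21, -0.21 and -0.18.

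A covariate for the sex-linked transcripts changed the calls, in a way that depended on its form. With the Y-linked share of reads, relative to the highest library, as a term in limma, 19 of 35 members passed, all lower in cKO, against 617 of 12699 genes lower, or 4.86%, and 826 in either direction, or 6.5%. They included Ak4 (log2 ratio -1.96, adjusted p = 0.00555), Hk2 (-0.71, adjusted p = 0.0101) and Gapdh (-0.52, adjusted p = 0.0237), but not Hif1a (-0.19, adjusted p = 0.102). With the level of Xist as the covariate 24 members passed, all lower, against 6.66% of genes lower. With log2 of Xist 7 passed, against 3.04%, and with log2 of the Y-linked level 0 passed, against 0.0709%. With the linear Y-linked covariate, leaving out cKO 1 gave 0 members and 11 of all genes, leaving out control 2 gave 5 and 89, and leaving out cKO 3 gave 9 and 202, so calls fell in number over all genes too. The median log2 ratio of the members was -0.47 with that covariate and -0.57, -0.51 and -0.39 in these 3 fits. It was -0.23 with log2 of the Y-linked level, -0.54 with Xist and -0.75 with log2 of Xist. The covariate was 0.000249, 0.678 and 0.285 in controls 1, 2 and 3 and 0.00107, 1 and 0.982 in cKO 1, 2 and 3, so it was partly bound up with genotype, and the calls with it rest on few libraries.

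Per kilobase of merged exon, which allows genes to be compared, the members spanned from 21368 ± 5902 normalised counts for Gapdh to 43.1 ± 20.1 for Ankrd37 in the controls (SD, n = 3). After Gapdh came Aldoa at 17366 ± 5302, Pkm at 14136 ± 4706 and Ldha at 13895 ± 4492, and the library values of these 4 overlapped. Hif1a, at 2538 ± 65.4 in the controls and 2208 ± 74.3 in the cKO libraries, was the tenth of 35 and exceeded every HIF target other than Mif at 8821 ± 2679. Hk1 at 1073 ± 118 stood above Hk2 at 329 ± 85.2, with no overlap between their library values.

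**Figure D5:**
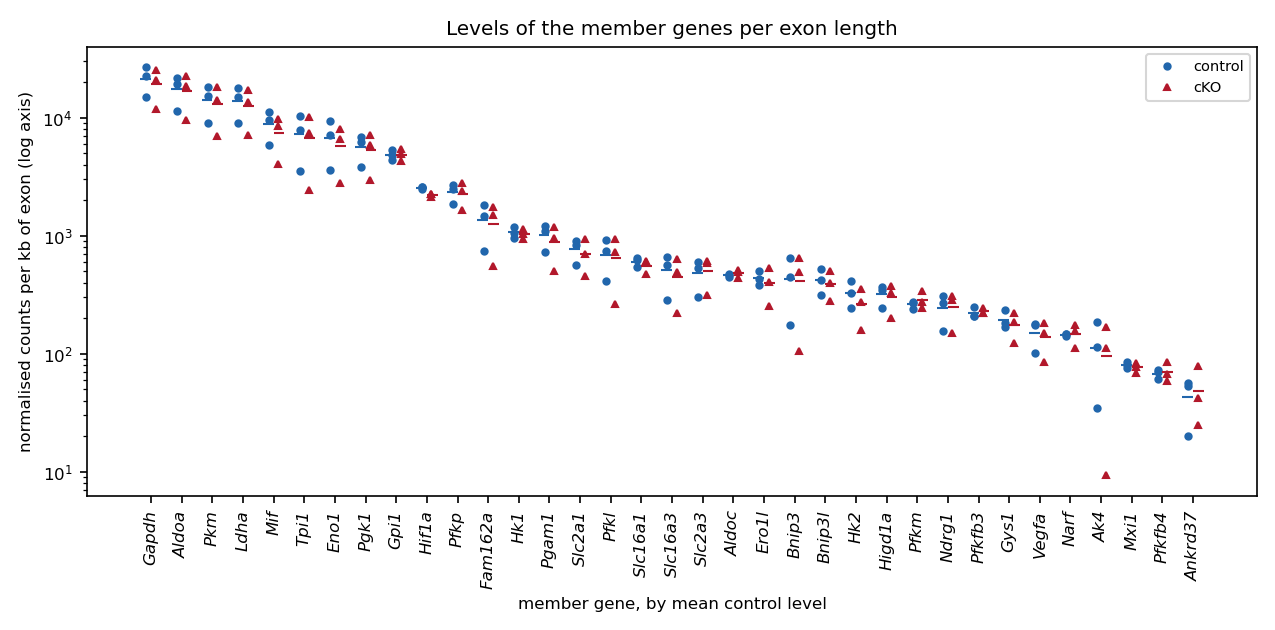
Normalised counts per kilobase of exon (vertical log axis) of the 35 members in control (blue circles) and cKO libraries (red triangles), ordered by control mean, with short lines at the group means. Levels run from 21368 for Gapdh to 43.1 for Ankrd37 in the controls, and the 3 points of a gene are close together for Hif1a, Gpi1 and Aldoc and far apart for Ak4, Bnip3 and Tpi1.

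Other genes of the pathways, taken from 5 fixed lists, gave 0 calls in limma on genotype alone. Of 18 tested genes among 30 other isoforms and side enzymes of glycolysis, 9 had negative and 9 positive log2 ratios, with a median of 0.01, and 0 passed with the linear Y-linked covariate. The most abundant were Pgm2, a phosphoglucomutase (-0.10, SE 0.27), Ldhb (-0.06, SE 0.17) and Adpgk, an ADP-dependent glucokinase (0.02, SE 0.22). Of these 18, 4 (22.2%) had both number 1 libraries lowest and 7 (38.9%) had them highest, against 20.3% and 19.7% of all tested genes. Among 16 tested regulators of HIF the median was -0.04. With the linear Y-linked covariate 3 passed as lower, Egln3, Cul2 and Tceb2, against 4.86% of all tested genes. The coactivators Crebbp (0.02, SE 0.11) and Ep300 (-0.02, SE 0.08) were level, as was Egln1, the main prolyl hydroxylase (-0.05, SE 0.22).

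Egln3, a prolyl hydroxylase that is itself a HIF target, had normalised counts of 3345, 4489 and 4092 across the controls and of 2593, 3689 and 3264 across the cKO libraries. The groups overlapped, while each cKO library was below the control of its number by a like amount, and the log2 ratio was -0.33 (SE 0.15, limma adjusted p = 0.978). With the replicate number as a block it passed in DESeq2 (adjusted p = 0.0429, where 6 of 12699 genes, 0.0472%, passed as lower), but not in limma (adjusted p = 0.237) or edgeR (0.225). Vhl, the ubiquitin ligase subunit that binds hydroxylated HIF, had a log2 ratio of 0.08 (SE 0.08), with 493 to 509 normalised counts in the controls and 512 to 553 in the cKO libraries. Its groups did not overlap, nor did those of Hif1an (0.05, SE 0.07), Epas1 (0.48, SE 0.17) and Cul2 (-0.29, SE 0.10), which were named after their values were seen. All 4 had limma adjusted p of 0.978 to 0.980. Among the 16 tested regulators, groups did not overlap with cKO higher in 3 and with cKO lower in 1. Of all tested genes these shares were 4.51% and 5.64%. Epas1, the gene of HIF-2alpha, was low, at 59.8 to 78.7 in the controls and 91.3 to 104 in the cKO libraries.

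Of 40 other HIF targets, 31 were tested, 22 with negative and 9 with positive log2 ratios, and the median was -0.05. Pnrc1, a nuclear receptor coactivator, was the most abundant (-0.02, SE 0.08). P4ha1, a collagen prolyl hydroxylase subunit, had normalised counts of 2310, 4422 and 3886 across the controls and of 2338, 4862 and 4072 across the cKO libraries, so that it too was lowest in the libraries numbered 1 (log2 ratio 0.07, SE 0.31). Pdk1, which inhibits pyruvate dehydrogenase, and Ddit4, an inhibitor of mTORC1, had 0.01 (SE 0.17) and 0.09 (SE 0.10). In 17 of the 31 (54.8%) both number 1 libraries were lowest, against 20.3% of all tested genes. With the linear Y-linked covariate 6 of the 31 passed as lower, against 4.86% of all tested genes. Of 13 growth-signal genes upstream of glycolysis the median was -0.06, with Slc7a5 and Slc3a2, the 2 chains of the CD98 amino acid transporter, at -0.22 (SE 0.23) and -0.00 (SE 0.23) and the kinase Akt2 at -0.11 (SE 0.07). Irf4, Myc and Akt1, named after their values were seen, had larger differences. Irf4, an activation-induced transcription factor, had normalised counts of 3363, 4830 and 3816 across the controls and of 2113, 3482 and 3308 across the cKO libraries. Its groups overlapped and its log2 ratio was -0.45 (SE 0.21, limma adjusted p = 0.978), with pair differences of -0.67, -0.47 and -0.21. With the replicate number as a block it passed in DESeq2 (adjusted p = 0.00997) but not in limma (adjusted p = 0.244) or edgeR (0.225). Myc, a growth factor-driven transcription factor, and Akt1, a kinase, had log2 ratios of -0.28 (SE 0.12) and -0.23 (SE 0.11), each lower in all 3 pairs and each with overlapping groups. With the block neither passed (limma adjusted p = 0.244 and 0.269). With the linear Y-linked covariate Irf4, Myc, Akt1 and Slc7a5 passed as lower, 4 of these 13 genes, against 4.86% of all tested genes. Of 16 tested genes that use products of glycolysis, 13 had negative log2 ratios, and the median of the 16 was -0.13. With that covariate 3 of them, G6pdx, Psat1 and Psph, passed as lower, against the same 4.86% of all tested genes. The most abundant were Tkt, transketolase (-0.09, SE 0.10), and Psat1 and Phgdh of serine synthesis (-0.23, SE 0.22, and -0.18, SE 0.21).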

How the data were processed

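Of the series, 6 RNA-seq libraries were used, 3 control and 3 Sdhc cKO, grouped by title. The submitters' processing notes name STAR, HTSeq, DESeq2 and the build mm10, with versions, settings, annotation and strand setting not given in the sources used here. The deposited signal values are reads over a size factor: in all libraries 100% were whole multiples, within 0.01, of what 1 read is worth. Recovered reads came to between 18144933 and 21983821 a library.

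Testing was limited to the 12699 genes that exceeded a value of 10 in 3 or more libraries. The model was limma 3.58.1 (trend, R 4.3.3) on log2(value + 1) with genotype alone, adjusted by Benjamini-Hochberg at 0.05. Log2 ratios on this scale understate changes of low genes, and the SE given is the moderated one. The procedure was tested on simulated data. These held no shared variation by replicate number, so that test does not cover this feature of the libraries. Single values were compared by 2-sided exact permutation. Members and lists were chosen with earlier results of these data known. Members given in full were a fixed set plus any that passed, did not overlap between groups or reached an absolute log2 ratio of 0.3. From each other list came its 3 most abundant genes and a few fixed ones.

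Alternatives covered scalings, filters, pseudocounts, array weights, a Y-linked covariate, left-out libraries (each, and both numbered 1), the replicate number as a block, and limma-voom, edgeR 4.0.16 and DESeq2 1.42.0 on whole reads. DESeq2 and edgeR with the block and further forms of the covariate were chosen after seeing the data. Titles give both groups the numbers 1, 2 and 3. Across genes, the deviations from the group mean of the libraries sharing a number correlated at 0.579, 0.458 and 0.188. Each exceeded 0.1, and the numbers were taken as pairs only for the block and for differences between libraries of the same number. The labels do not state such pairs. The main fit, with its SEs and adjusted p, did not use them. cKO 3 correlated more with control 2 (0.272) than with control 3, so the values do not single out the third pair.

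Exon lengths and positions are from GENCODE M21 (GRCm38, the assembly of mm10), and promoters from RefSeq on GRCm38.p6. Reads from near-identical copies or antisense genes could not be told apart.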

Additional observations from a re-analysis of the deposited data

How the results depend on the processing

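Under no other scaling, filter, pseudocount, test or left-out library did a member pass; a covariate for sex-linked transcripts was the exception, with 19 members called on the linear Y-linked level. All-gene calls were 2 with DESeq2, 1 with array weights, 826 with the Y-linked covariate and 3 without both libraries numbered 1. With the replicate block 1 gene was called in limma, 13 in DESeq2 and 1 in edgeR, and the block changed no call of a member. With 1 library left out, 0 to 1 genes and 0 members were called, and the member count with the Y-linked covariate ran from 0 to 23. Signs of uncalled log2 ratios were not stable. With array weights Bnip3 was 0.035 and Pfkfb4 -0.039, and with upper-quartile factors Hk1 was 0.00223. With the Y-linked covariate Slc2a3 was -0.29, Gpi1 -0.096, Pfkfb3 -0.00985, Ankrd37 -0.33, Ndrg1 -0.37 and Narf -0.15. Without both libraries numbered 1, Pfkl was 0.017, Aldoa 0.015, Pfkfb4 -0.061 and Bnip3 0.061. From counts not divided by length, the share of Pfkp differed by 0.0415 points. The lowest and highest log2 ratios with 1 library left out were, for Slc2a1 -0.41 to 0.11, Slc2a3 -0.23 to 0.39, Hk1 -0.12 to 0.039, Gpi1 -0.068 to 0.10, Pfkl -0.58 to 0.35, Pfkm -0.012 to 0.23, Pfkp -0.23 to 0.15, Aldoa -0.36 to 0.29, Tpi1 -0.67 to 0.40, Gapdh -0.41 to 0.14, Pgk1 -0.40 to 0.25, Pgam1 -0.50 to 0.12, Eno1 -0.64 to 0.21, Pkm -0.45 to 0.24, Ldha -0.47 to 0.18, Slc16a1 -0.20 to 0.00244, Slc16a3 -0.59 to 0.22, Pfkfb3 -0.00971 to 0.13, Pfkfb4 -0.11 to 0.15, Vegfa -0.41 to 0.18, Bnip3 -0.75 to 0.60, Bnip3l -0.31 to 0.11, Ankrd37 -0.32 to 0.54, Ndrg1 -0.29 to 0.33, Ero1l -0.45 to 0.088, Mxi1 -0.14 to 0.0031, Higd1a -0.30 to 0.16, Fam162a -0.53 to 0.36, Ak4 -1.47 to 0.60, Gys1 -0.34 to 0.079, Narf -0.14 to 0.19 and Mif -0.56 to 0.11. Hk2, Aldoc and Hif1a kept their sign. Paralog shares (cKO minus control, percentage points) ran, over the same omissions, for Pfkl -3.74 to 2.29, Pfkm -1.12 to 3.41, Pfkp -1.17 to 0.662, Aldoa -1.03 to 0.488, Pfkfb3 -2.02 to 2.23, Slc16a3 -6.48 to 3.58, Bnip3 -7.09 to 8.32 and Ldha -0.998 to 0.208. Leaving out cKO 1 turned 26 signs and leaving out control 2 turned 15. The cause of these shifts was not tested. Depth was lowest for Ankrd37.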
